A study of Homo sapiens with 9 samples.

Results

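The 10 genes described here encode the core BCL2 family, the proteins that decide whether a cell opens its outer mitochondrial membrane and enters apoptosis: BCL2, BCL2L1, MCL1, BAX, BAK1, BBC3, PMAIP1, BID, BCL2L11 and BIK. They were taken by symbol from a table of read counts for 57905 Ensembl gene identifiers, and all 10 were found and passed the expression filter that left 16916 genes to test. The table holds 9 RNA-seq libraries of A549, a cell line established from a human lung adenocarcinoma and grown here in medium with 5% serum. The 3 groups have 3 libraries each: control cells, called plko in the titles and scrambled controls in the treatment label; cells with a short hairpin RNA (shRNA) against AKR1B1, the aldose reductase gene; and cells whose shRNA targets SORD, the sorbitol dehydrogenase gene. Aldose reductase and sorbitol dehydrogenase are the consecutive enzymes of the polyol pathway, which turns glucose into sorbitol and then fructose. The labels name 1 shRNA per target, so an effect of the target and an effect of that hairpin on other transcripts cannot be told apart, and the paired names leave unclear if the control vector held a hairpin at all. The series calls the libraries of a group biological replicates without saying that they were separate transductions, so the spread behind each p-value is the one among these 9 libraries and may be technical. The question put to the data was how transcript levels of the family differ between each knockdown and the control and between the knockdowns.

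The family works by binding between its own members. Anti-apoptotic proteins (BCL2; BCL-XL, encoded by BCL2L1; and MCL1) hold the effectors BAX and BAK1 in check, and the effectors, once free, form pores that release cytochrome c from mitochondria. BH3-only proteins are the sensors of the system: PUMA (BBC3), NOXA (PMAIP1), BID, BIM (BCL2L11) and BIK bind the anti-apoptotic proteins through a short helix, the BH3 domain, and some of them also activate the effectors directly. In lung adenocarcinoma cells BCL-XL and MCL1 are well known as survival factors, and much of the control of the family lies in protein stability and binding, which transcript levels do not show.

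The BH3 helix is the feature that the 10 members share, and the bases that encode its core are printed to show how far the genes differ beneath a common motif. The core was searched as a codon for leucine, 3 codons for any residue, a codon for glycine (alanine in BBC3) and a codon for aspartate. It was found exactly once in the coding sequence of each member's principal GENCODE 29 transcript (GRCh38, sense strand). The 18 bases in capitals are the core, and the lower case bases are 4 codons on either side.
BCL2: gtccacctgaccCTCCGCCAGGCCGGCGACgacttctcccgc
BCL2L1: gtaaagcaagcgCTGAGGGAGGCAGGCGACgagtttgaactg
MCL1: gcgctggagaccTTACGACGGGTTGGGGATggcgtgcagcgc
BAX: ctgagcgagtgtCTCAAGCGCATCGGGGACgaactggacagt
BAK1: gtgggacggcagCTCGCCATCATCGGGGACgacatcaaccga
BBC3: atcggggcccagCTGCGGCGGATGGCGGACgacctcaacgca
PMAIP1: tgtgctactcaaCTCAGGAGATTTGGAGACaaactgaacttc
BID: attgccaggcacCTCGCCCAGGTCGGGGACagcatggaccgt
BCL2L11: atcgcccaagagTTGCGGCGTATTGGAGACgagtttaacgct
BIK: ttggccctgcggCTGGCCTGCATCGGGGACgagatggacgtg
The core leucine lies at codon 97 of 239 in BCL2, at codon 90 of 233 in BCL2L1 and at codon 213 of 350 in MCL1. In the effectors it lies at codon 63 of 192 in BAX and at codon 78 of 211 in BAK1. Among the BH3-only genes it lies at codon 141 of 193 in BBC3, 29 of 54 in PMAIP1, 136 of 241 in BID, 92 of 138 in BCL2L11 and 61 of 160 in BIK. A pattern this short is common: it occurs in 4845 of 19514 protein-coding genes (24.8%), so a match describes these genes and does not define the family.

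Depth did not differ much between groups, with 32436524 to 43044456 counts per library. Hairpin targets were reduced where the labels say: AKR1B1 in the shAKR1B1 libraries was 10.9% of control (edgeR quasi-likelihood test, adjusted p = 5.4e-13), and SORD in the shSORD libraries was 20.1% of control (adjusted p = 3.65e-12). Each target was also lower in the other knockdown, AKR1B1 at 75.1% of control in shSORD (adjusted p = 0.000131) and SORD at 71.2% in shAKR1B1 (adjusted p = 6.43e-06). The 5 epithelial markers, KRT8 and CDH1 among them, were well covered in every library and all 5 rose in each knockdown, while no leukocyte or endothelial marker exceeded 6 counts. Fibroblast markers (COL1A1, COL1A2, DCN, LUM and PDGFRB) moved with the groups: their summed level was 14.4 to 16.2 CPM (read counts scaled to library size) in control, 8.51 to 10.1 in shAKR1B1 and 33.8 to 52.9 in shSORD libraries, mostly COL1A1. In shSORD 4 of the 4 tested rose (COL1A1, COL1A2, LUM and PDGFRB), with a median log2 fold change of 2.89, and in shAKR1B1 1 rose (LUM) and 1 fell (COL1A1). Beside both marker lists, 27.8% of all tested genes rose and 29.6% fell in shAKR1B1, and 27.5% and 29% in shSORD. DCN, the one below the filter, had 0 to 4 counts in any library, and the part of these markers in the results was not tested. In such bulk RNA, fewer cells of a kind and less RNA per cell cannot be told apart.

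Per kilobase of exon BCL2L1 was the most abundant member and BCL2 the least. Levels between genes are compared as CPM per kilobase of exon. The length is that of all annotated exons of a gene merged, not of the transcripts expressed. Order, shares and ratios between genes depend on it, and the SDs do not hold that uncertainty. In CPM without the length BIK was below BCL2 (0.452 against 2.17 on average in control). In control libraries BCL2L1 stood at 67.5 ± 1.46 (SD, n = 3), above 96.9% of tested genes. BAX, at 42.5 ± 1.93, and MCL1, at 42.5 ± 1.02, came next and did not differ beyond their spread. BID followed at 11.8 ± 0.272 and BAK1 at 8.07 ± 0.803. BCL2L11 stood at 6.34 ± 0.0903, then PMAIP1 at 4.73 ± 0.332 and BBC3 at 3.85 ± 0.386. BIK, at 0.474 ± 0.0966, and BCL2, at 0.185 ± 0.0261, lay far below, BCL2 above 11.1% of tested genes. Thus the gene after which the family is named supplied 0.113% to 0.207% of the summed BCL2, BCL2L1 and MCL1 transcripts per kilobase in any library. The anti-apoptotic genes BCL2L2 and BCL2A1, which are not among the members, stood at 8.28 and 1.92 in control and are not in that sum. In the order of the BH3-only members per kilobase BBC3 changed place. By that measure it was below PMAIP1 in control libraries. In shAKR1B1 (5.29 ± 0.293 against 3.07 ± 0.116) and shSORD libraries (6.92 ± 1.30 against 2.55 ± 0.181) it was above PMAIP1. In CPM without the length BBC3 was above PMAIP1 in control too (12.2 against 10.6 on average), so the change of place depends on the exon lengths used. By mean, BCL2L11 (8.76 ± 0.696) also stood above BID (8.37 ± 0.755) in shSORD libraries, within their spread.

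**Figure D1:**
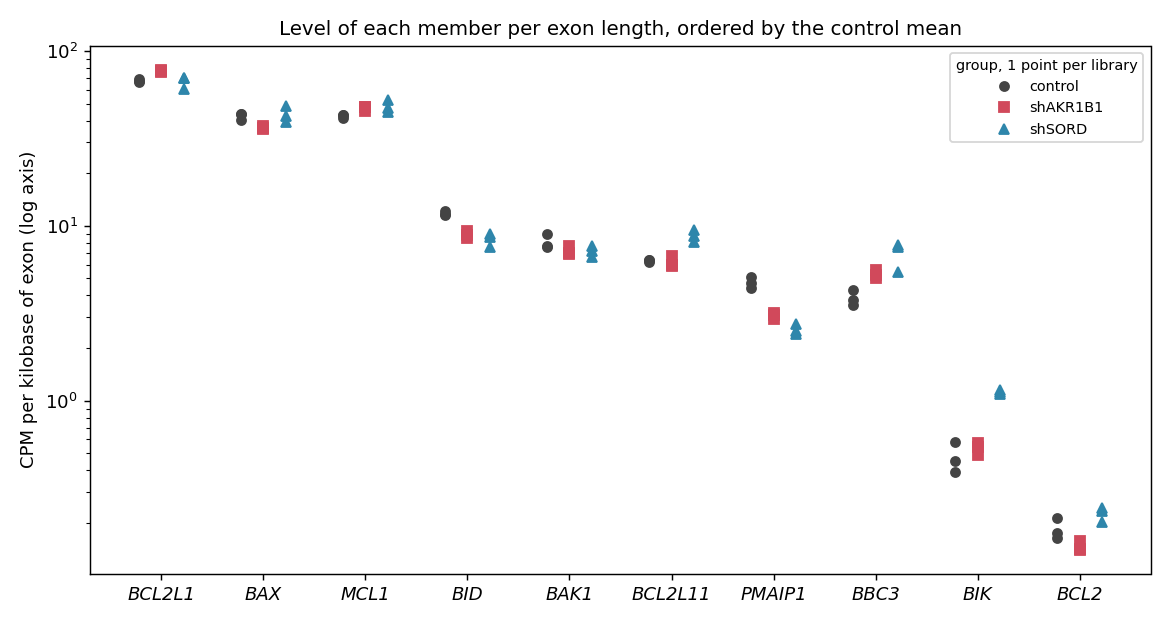
Level of each member as CPM per kilobase of exon (log axis) in control, shAKR1B1 and shSORD libraries, with points for single libraries. BCL2L1, MCL1 and BAX lie at the top in all 3 groups, and BIK and BCL2 lie lowest.

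Among the anti-apoptotic genes BCL2L1 rose in shAKR1B1 cells, MCL1 rose in shSORD cells, and BCL2 differed between the knockdowns without passing the test against control in either. BCL2L1 (ENSG00000171552), whose product BCL-XL guards the mitochondrial membrane, had 229, 219.6 and 223 CPM in the control libraries, 254, 258 and 252 CPM in shAKR1B1 and 232, 232 and 200.5 CPM in shSORD. All 3 shAKR1B1 libraries were above all others, whereas the shSORD libraries spanned the control values. The log2 fold change against control was 0.19 (SE 0.0583, 1.14-fold, edgeR adjusted p = 0.0133) in shAKR1B1 and −0.01 (95% interval −0.14 to 0.11, adjusted p = 0.846) in shSORD. The direct comparison gave BCL2L1 a level 1.15-fold higher in shAKR1B1 than in shSORD (edgeR adjusted p = 0.0167). The BCL2L1 rise missed the threshold without control replicate 2 (0.0579), and the difference between the knockdowns missed it with only those 2 groups fitted (0.0616) or without shAKR1B1 replicate 1 (0.0508) or 2 (0.0612). BCL2L1 shares exon bases with an antisense gene, ABALON, and the strand setting of the counting is not given in the sources used here.

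MCL1 (ENSG00000143384), a short-lived survival protein, had 187, 181 and 189 CPM in control, 208, 198 and 208 CPM in shAKR1B1 and 206, 195 and 230.1 CPM in shSORD libraries. Every library of either knockdown was above every control library. In shSORD the rise was 1.13-fold (log2 0.18, SE 0.0600, edgeR adjusted p = 0.0187). In shAKR1B1 MCL1 had a log2 fold change of 0.14 (SE 0.0601) and missed the threshold (edgeR adjusted p = 0.059), and the knockdowns differed by −0.04 (95% interval −0.17 to 0.09, adjusted p = 0.652). Without control replicate 2 the MCL1 call in shSORD was lost (adjusted p = 0.0822), and the shAKR1B1 value passed under every other scaling tried (adjusted p = 0.00816 to 0.041), with the stricter filter (0.021), with only the 2 groups compared (0.000888), with the replicate number as a block (0.0354), and without shAKR1B1 replicate 2 or any 1 shSORD library (0.0057 to 0.0425).

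BCL2 (ENSG00000171791), the founding anti-apoptotic gene, had 1.93, 2.07 and 2.52 CPM in control, 1.65, 1.68 and 1.86 CPM in shAKR1B1 and 2.85, 2.39 and 2.76 CPM in shSORD libraries. The shAKR1B1 libraries were the 3 lowest of the 9, and the shSORD libraries overlapped the control. At 54 to 110 counts per library, the log2 fold changes against control were −0.33 (SE 0.151, edgeR adjusted p = 0.0762) in shAKR1B1 and 0.29 (SE 0.142, adjusted p = 0.0952) in shSORD. The shSORD value passed with upper quartile scaling (0.0411), with total counts (0.0458) and without control replicate 3 (0.0387). Between the knockdowns BCL2 was lower in shAKR1B1, at 65.1% of its shSORD level (log2 −0.62, SE 0.146, edgeR adjusted p = 0.00486).

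Of the effectors, which form the pore, BAX fell in shAKR1B1 and BAK1 did not pass the test in any comparison. BAX (ENSG00000087088) had 113, 104 and 113 CPM in control, 92.3, 94.3 and 96.4 CPM in shAKR1B1 and 109.6, 125 and 101 CPM in shSORD libraries. The shAKR1B1 libraries were below all 6 others. Against control BAX fell to 85.8% in shAKR1B1 (log2 −0.22, SE 0.0698, edgeR adjusted p = 0.0139) and was 0.03 higher on the log2 scale in shSORD (95% interval −0.12 to 0.18, adjusted p = 0.76). Between the knockdowns BAX differed by −0.25 (SE 0.0697, edgeR adjusted p = 0.0139). The BAX call against control was lost with upper quartile scaling (adjusted p = 0.068) and without control replicate 3 (0.0866), shAKR1B1 replicate 1 (0.0524) or shAKR1B1 replicate 2 (0.0613); the call between the knockdowns was lost without shAKR1B1 replicate 1 (0.0595).

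BAK1 (ENSG00000030110), which sits in the mitochondrial membrane even in healthy cells, had 19.9, 16.6 and 17.0 CPM in control, 15.3, 15.4 and 16.9 CPM in shAKR1B1 and 14.7, 17.0 and 15.8 CPM in shSORD libraries. One control library, replicate 1, was the highest of all 9 and the other control libraries overlapped both knockdowns. The 95% intervals of the log2 fold change were −0.35 to 0.02 in shAKR1B1 and −0.36 to 0.01 in shSORD (edgeR adjusted p = 0.107 and 0.0992). Without shSORD replicate 2 the shSORD difference was −0.23 and passed (adjusted p = 0.0316). A processed copy, BAK1P1, had 24 to 45 counts per library, and the sources used here do not say how reads that match both were counted.

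Among the BH3-only genes BBC3 rose and PMAIP1 and BID fell in each knockdown, while BCL2L11 and BIK rose in shSORD and did not pass the test in shAKR1B1. BBC3 (ENSG00000105327) encodes PUMA, which binds every anti-apoptotic member. Its CPM was 13.6, 11.2 and 11.9 in control, 16.6, 17.9 and 16.1 in shAKR1B1 and 24.7, 24.1 and 17.2 in shSORD libraries. No control library reached any knockdown library, and shSORD replicate 3 lay within the range of shAKR1B1. BBC3 rose 1.38-fold in shAKR1B1 (log2 0.46, SE 0.121, edgeR adjusted p = 0.00447) and 1.80-fold in shSORD (log2 0.85, SE 0.119, edgeR adjusted p = 2.73e-05). Between the knockdowns it was lower in shAKR1B1 by −0.39 (SE 0.116, edgeR adjusted p = 0.0202), a call lost without shAKR1B1 replicate 1 (0.0649), shAKR1B1 replicate 3 (0.0797) or shSORD replicate 1 (0.102).

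PMAIP1 (ENSG00000141682) encodes NOXA, a small protein that binds MCL1 and promotes its degradation. Its CPM was 11.3, 9.84 and 10.6 in control, 6.92, 6.59 and 7.10 in shAKR1B1 and 5.57, 5.36 and 6.15 in shSORD libraries. The 3 groups did not overlap, with control highest and shSORD lowest. PMAIP1 fell to 64.9% of control in shAKR1B1 (log2 −0.62, SE 0.0896, edgeR adjusted p = 3.07e-05) and to 53.8% in shSORD (log2 −0.89, SE 0.0910, edgeR adjusted p = 1.13e-06). The difference between the knockdowns was 0.27 (SE 0.0942, edgeR adjusted p = 0.0405). That difference missed the threshold with the replicate number as a block in these 2 groups (adjusted p = 0.0517), with total counts (0.0565), with no expression filter (0.0841), with only these 2 groups (0.0791), with DESeq2 (0.0701), and without control replicate 3, any 1 shAKR1B1 library or shSORD replicate 1 or 2 (0.0515 to 0.122).

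BID (ENSG00000015475) encodes the protein that caspase-8 cleaves to link death receptors to mitochondria. Its CPM was 53.8, 52.1 and 51.5 in control, 39.3, 41.4 and 37.9 in shAKR1B1 and 38.2, 39.9 and 33.5 in shSORD libraries. All knockdown libraries were below all control libraries, and the knockdowns overlapped each other. BID fell to 75.4% of control in shAKR1B1 (log2 −0.41, SE 0.0699, edgeR adjusted p = 0.000155) and to 70.9% in shSORD (log2 −0.50, SE 0.0700, edgeR adjusted p = 2.86e-05). Between the knockdowns BID differed by 0.09 (95% interval −0.06 to 0.24, edgeR adjusted p = 0.379).

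BCL2L11 (ENSG00000153094) encodes BIM, which binds all anti-apoptotic members and can activate BAX and BAK1. Its CPM was 42.6, 41.5 and 42.5 in control, 44.6, 39.4 and 39.9 in shAKR1B1 and 63.0, 53.7 and 58.3 in shSORD libraries. The shSORD libraries stood above the other 6, which overlapped. BCL2L11 rose 1.38-fold in shSORD (log2 0.47, SE 0.0701, edgeR adjusted p = 5.08e-05) and had a log2 fold change of −0.03 in shAKR1B1 (95% interval −0.18 to 0.12, adjusted p = 0.71). The knockdowns differed by −0.50 (SE 0.0701, edgeR adjusted p = 6.84e-05). BCL2L11 shares exon bases, up to 727 in a single pair of exons, with MIR4435-2HG on the opposite strand. The log2 fold changes of MIR4435-2HG were −0.28 in shAKR1B1 (adjusted p = 0.00215) and −0.08 in shSORD (adjusted p = 0.32).

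BIK (ENSG00000100290) encodes a BH3-only protein of the endoplasmic reticulum. Its CPM was 0.552, 0.371 and 0.433 in control, 0.521, 0.543 and 0.464 in shAKR1B1 and 1.04, 1.07 and 1.104 in shSORD libraries. The shSORD libraries, with 40 to 44 counts each, were above the other 6, which had 14 to 22 counts. BIK rose 2.37-fold in shSORD (log2 1.24, SE 0.220, edgeR adjusted p = 0.000219), the largest fold change among the 10 members in the 3 comparisons. In shAKR1B1 the log2 fold change was 0.17 with a wide 95% interval, −0.37 to 0.71 (adjusted p = 0.607), and the knockdowns differed by −1.07 (SE 0.214, edgeR adjusted p = 0.0014).

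**Figure D2:**
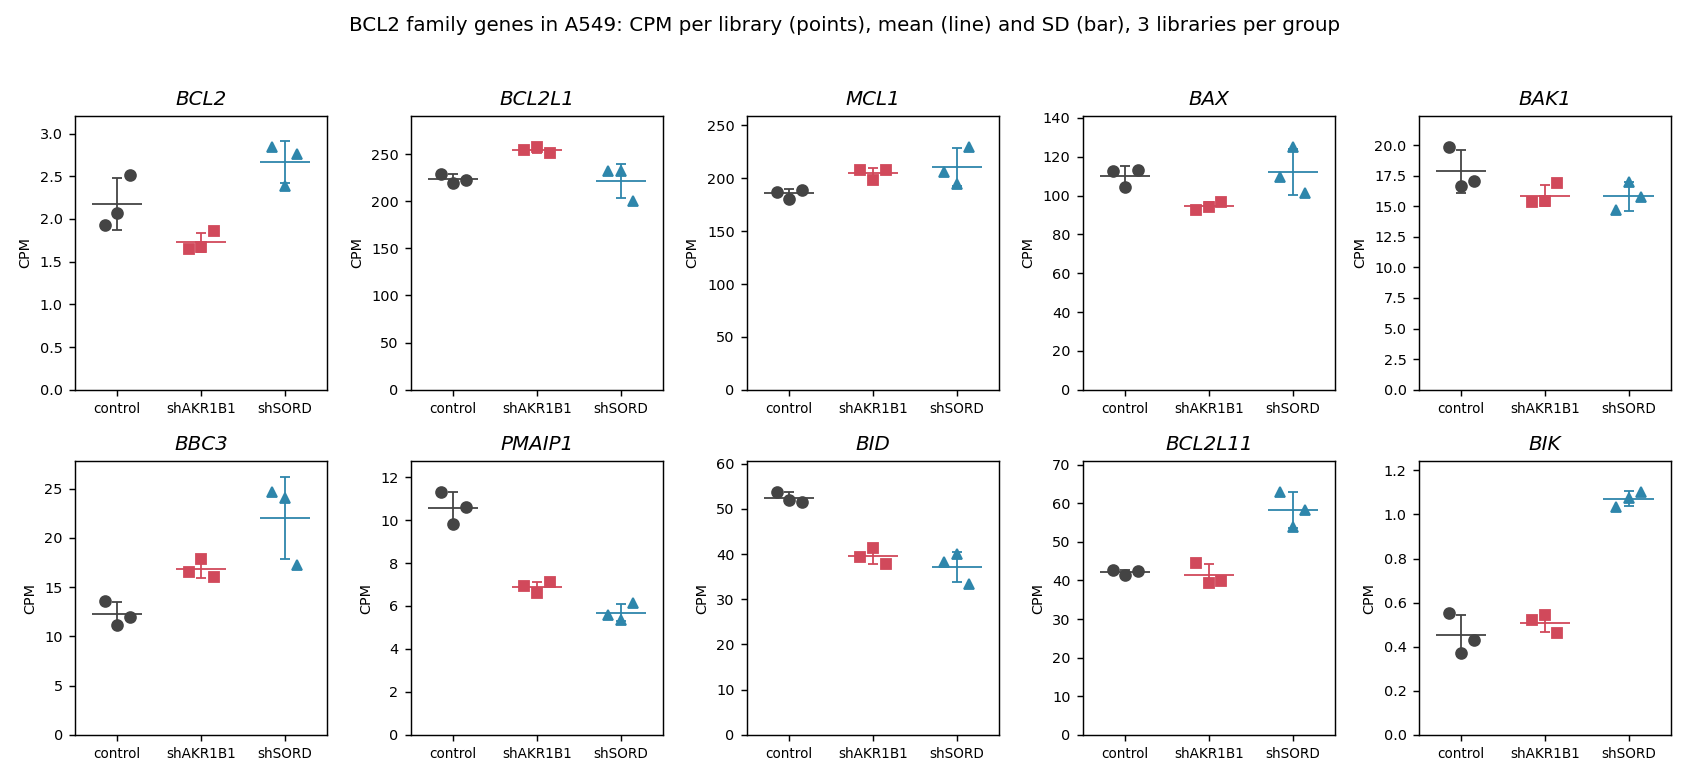
CPM of the 10 members in each library (points), with the group mean (line) and SD (bar), 3 libraries per group, each panel with its own axis from 0. PMAIP1 and BID are lower in every knockdown library than in every control library, and BCL2L11 and BIK are higher in every shSORD library than in every other library.

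Counted over the family, 2 members rose and 3 fell in shAKR1B1. Over all tested genes 57.4% were called in that comparison, 27.8% higher and 29.6% lower, so 5 members of 10 is a share near the background. In shSORD 4 members rose and 2 fell, beside 56.5% of all genes called (27.5% higher and 29% lower). Between the knockdowns 2 members were higher in shAKR1B1 and 5 lower, beside 30.7% called (15.5% higher and 15.1% lower). Libraries did not overlap for 7 members in shAKR1B1 against control, 6 in shSORD against control and 6 between the knockdowns, beside 69.1%, 60.1% and 40.1% of all genes. The median log2 fold change of the members was −0.10 in shAKR1B1 and 0.10 in shSORD, and that of all genes −0.00 in both. Their median size of change, sign aside, was 0.20 in shAKR1B1 and 0.38 in shSORD, beside 0.32 for all genes in each. By role, 1 of 3 anti-apoptotic genes, 1 of 2 effectors and 3 of 5 BH3-only genes were called in shAKR1B1. In shSORD the called genes were 1 of 3 anti-apoptotic genes, 0 of 2 effectors and 5 of 5 BH3-only genes (BBC3, BCL2L11 and BIK up, PMAIP1 and BID down). Both knockdown comparisons use the same 3 control libraries, so their values are given side by side and are not independent of each other.

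**Figure D3:**
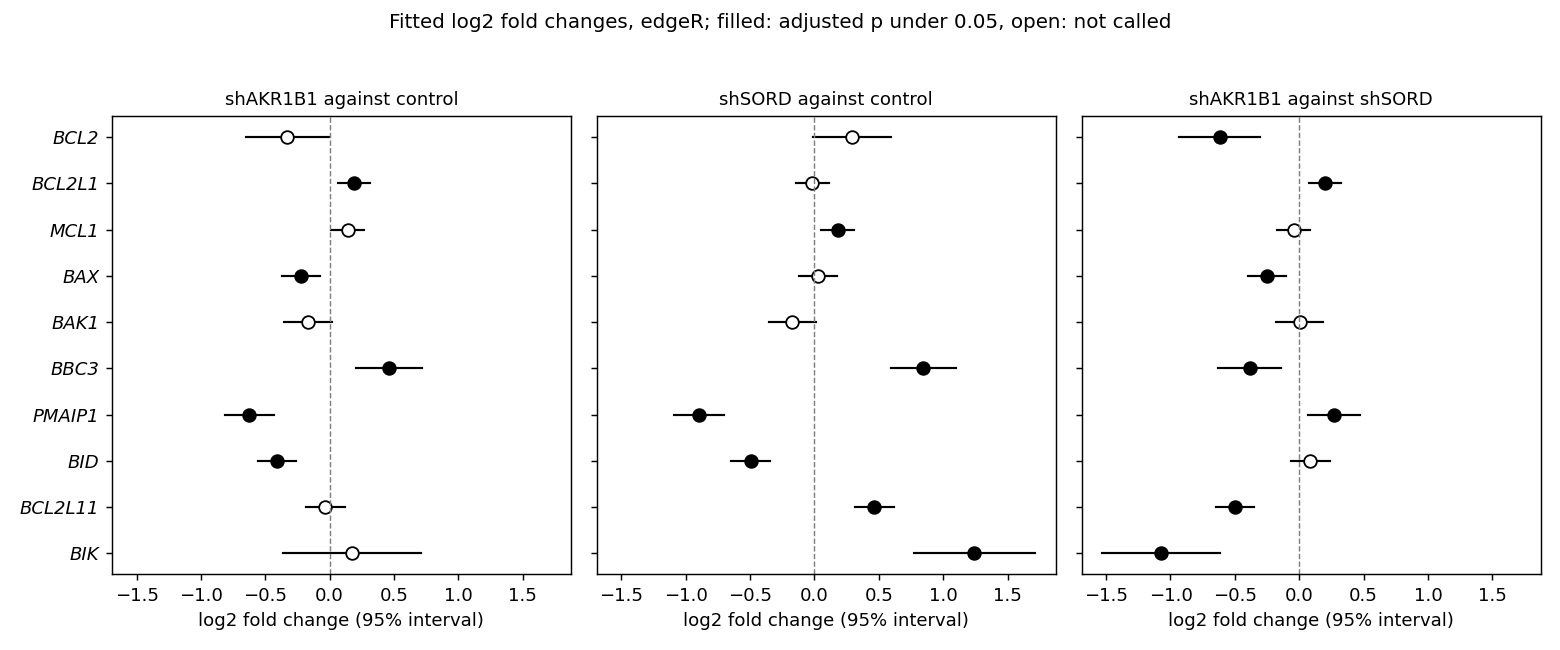
Fitted log2 fold change of each member (point) with its 95% interval (line) in the 3 comparisons, filled where the edgeR adjusted p is under 0.05. BBC3 is to the right and PMAIP1 and BID to the left of 0 in both knockdowns, while BCL2L11 and BIK lie to the right in shSORD.

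Shares by role were taken per kilobase over the 10 members only. The anti-apoptotic members made up 58.1% to 59.3% of that sum in control, 64.5% to 65.0% in shAKR1B1 and 57.7% to 61.2% in shSORD libraries. The BAX and BAK1 share was 26.3% to 27.2% in control, 22.3% to 23.4% in shAKR1B1 and 25.0% to 28.2% in shSORD, and the BH3-only share was 14.2% to 14.7%, 12.1% to 12.7% and 13.8% to 15.01%. The shAKR1B1 libraries thus stood apart on all 3 shares and the shSORD libraries overlapped the control on all 3. The 3 shares of a library add up to the whole, so they are not independent of each other. Single genes also often stood apart, 69.1% of all tested genes having no overlap of libraries in shAKR1B1 against control. These shares have no fitted test, and an exact two-sided permutation test of 3 libraries against 3 cannot go below p = 0.10.

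Within the 5 BH3-only members the mix differed in both knockdowns. BID supplied 42.6% to 44.6% of their summed transcripts per kilobase in control, 36.2% to 38.3% in shAKR1B1 and 29.2% to 31.9% in shSORD libraries. BBC3 supplied 13.4% to 15.03% in control, 21.4% to 23.0% in shAKR1B1 and 21.2% to 26.9% in shSORD. The PMAIP1 share was 16.8% to 17.8%, 12.1% to 13.7% and 8.47% to 10.7% in the same order. BCL2L11 held 22.5% to 23.8% in control, 24.3% to 27.5% in shAKR1B1 and 28.7% to 34.2% in shSORD, while BIK stayed under 5% throughout. The BH3-only total of the shSORD libraries was thus a share of the family like that of the control, made of less BID and PMAIP1 and more BBC3, BCL2L11 and BIK.

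**Figure D4:**
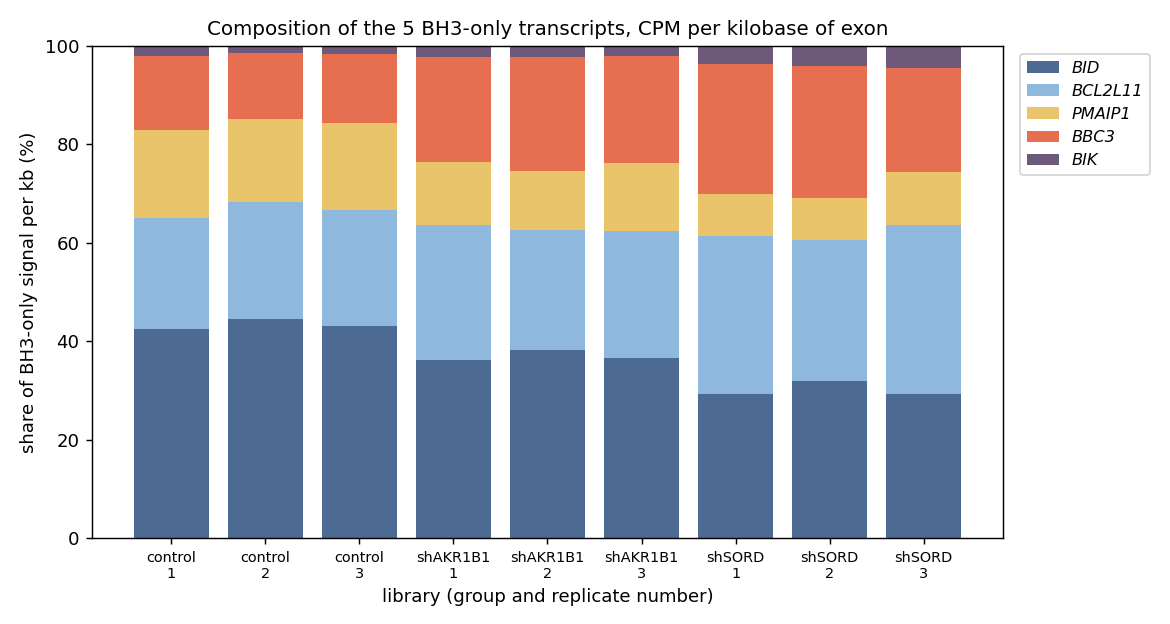
Share of each BH3-only gene in the summed CPM per kilobase of the 5 BH3-only genes (stacked bars, percent), one bar per library. BID takes 42.6% to 44.6% of the control bars and 29.2% to 31.9% of the shSORD bars, and BBC3 takes more of every knockdown bar than of any control bar.

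Ratios between partners that bind each other, picked after the values were seen and so given as description only, separated the groups in several cases. The BCL2L1 to BAX ratio per kilobase was 1.54 to 1.64 in control, 2.04 to 2.15 in shAKR1B1 and 1.45 to 1.65 in shSORD libraries. MCL1 to PMAIP1 was 8.45 to 9.39 in control, 14.95 to 15.4 in shAKR1B1 and 18.6 to 19.1 in shSORD, with no overlap between groups. BCL2L1 to BCL2L11 was 10.5 to 10.8 in control, 11.4 to 13.2 in shAKR1B1 and 6.91 to 8.68 in shSORD. MCL1 to BAK1 was 4.76 to 5.62 in control, and the knockdown libraries lay above that range at 6.23 to 6.87 in shAKR1B1 and 5.79 to 7.38 in shSORD.

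Of 13 further family genes, 11 passed the filter: 4 rose and 4 fell in shAKR1B1, and 3 rose and 4 fell in shSORD. The background is again 57.4% of all tested genes called in shAKR1B1 and 56.5% in shSORD, and 8 of 11 and 7 of 11 were called here. BMF, a BH3-only gene tied to the cytoskeleton, had 1.85, 1.72 and 2.60 CPM in control, 4.07, 4.56 and 3.94 in shAKR1B1 and 8.11, 6.27 and 6.12 in shSORD libraries. It rose 2.03-fold in shAKR1B1 (edgeR adjusted p = 9.29e-05) and 3.30-fold in shSORD (adjusted p = 3.84e-07), and the groups did not overlap. BCL2L15 rose 1.94-fold and 1.93-fold (adjusted p = 2.42e-05 and 2.79e-05). BNIP3L, a mitophagy receptor related to the family, rose by 0.59 in shAKR1B1 and 0.32 in shSORD on the log2 scale (adjusted p = 3.1e-05 and 0.00535). BCL2L13 rose 1.14-fold in shAKR1B1 (adjusted p = 0.00707). In shSORD its log2 fold change was 0.09 (adjusted p = 0.151), with every library above every control library. That shSORD value passed with upper quartile scaling (0.0182), total counts (0.0222), the stricter filter (0.038) or without shSORD replicate 3 (0.0384).

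BAD, the BH3-only gene whose product growth factor signalling silences by phosphorylation, fell to 69.9% and 77.2% of control in shAKR1B1 and shSORD (edgeR adjusted p = 0.000226 and 0.00294). HRK, a BH3-only gene best known from neurons, fell to 37.4% and 44.0% (adjusted p = 0.00132 and 0.00372), from 16 to 25 counts per control library. BOK, a BAX-like gene, fell to 69.2% in shAKR1B1 (adjusted p = 3.94e-05) and was at 89.0% in shSORD (adjusted p = 0.0768, and 0.00778 without shSORD replicate 2), and its level differed between the knockdowns (adjusted p = 0.00261). BNIP3 fell to 88.1% and 72.6% (adjusted p = 0.0228 and 2.29e-05), the former call being lost with upper quartile scaling (0.123), total counts (0.0794) and the stricter filter (0.0517), and on leaving out shAKR1B1 replicate 1 (0.0519) or 3 (0.108), or control replicate 2 (0.0942) or 3 (0.0679). BCL2L12 fell to 81.4% in shSORD (adjusted p = 0.0106, lost without control replicate 1 at 0.0585 or shSORD replicate 1 at 0.0652). In shAKR1B1 it was at 87.0% (adjusted p = 0.0672). That value passed with no expression filter (0.0193), a replicate block (0.049) or only the 2 groups compared (0.00429). It also passed without shSORD replicate 2 (0.00883) or 3 (0.0315). The anti-apoptotic genes BCL2L2 and BCL2A1 did not pass the test against control. BCL2A1 in shAKR1B1 (edgeR adjusted p = 0.0816) passed with only the 2 groups compared (0.049). BCL2L14 had 0 counts in all 3 control libraries, 10 to 20 in shAKR1B1 and 5 to 8 in shSORD, at least 4.88-fold and 2.01-fold higher in CPM than a floor of 3 counts per control library. BCL2L10 was also below the filter. BAD, BCL2L2, BCL2L12, BMF, BOK and BNIP3L share exon bases with genes on the opposite strand, so their counts are uncertain without the strand setting. BCL2L2 also shares exon bases, up to 440 in a single pair of exons, with BCL2L2-PABPN1 on the same strand.

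Around the family, 56 of 59 listed genes of the apoptosis pathway passed the filter. In shAKR1B1 15 rose and 24 fell, beside 27.8% of all tested genes higher and 29.6% lower, and in shSORD 15 rose and 21 fell, beside 27.5% and 29%. Against these same backgrounds stand the counts of each list below, which are given as description and were not tested as lists. Of 10 mitochondrial partners 2 rose and 6 fell in shAKR1B1, and 1 rose and 7 fell in shSORD. VDAC2, the channel of the outer membrane that carries BAK1 and BAX to it, had 122, 123 and 131 CPM in control, 21.9, 20.6 and 21.7 CPM in shAKR1B1 and 98.6, 97.7 and 115 CPM in shSORD libraries. It fell to 17.1% of control in shAKR1B1 (log2 −2.55, SE 0.0711, edgeR adjusted p = 1.04e-12) and to 82.6% in shSORD (log2 −0.28, adjusted p = 0.00216). The other channels moved little by comparison. VDAC1 rose by 0.17 on the log2 scale in shAKR1B1 (adjusted p = 0.0175, lost without control replicate 1 at 0.0594). In shSORD VDAC1 did not pass the test. It passed there with upper quartile scaling (log2 0.17, edgeR adjusted p = 0.0174), total counts (0.0179), the stricter filter (0.0417) or without shSORD replicate 1 (0.0154). VDAC3 fell to 88.9% in shAKR1B1 and 83.0% in shSORD (adjusted p = 0.016 and 0.000697). The VDAC3 call in shAKR1B1 was lost with upper quartile scaling (0.102), with total counts (0.0535) and on leaving out control replicate 2 (0.0751), shAKR1B1 replicate 2 (0.0888) or control replicate 3 (0.0615). CYCS, which encodes the cytochrome c that the pore releases, fell to 73.9% and 55.6%, and ENDOG, a mitochondrial nuclease, to 56.3% and 52.3% in shAKR1B1 and shSORD (adjusted p = 0.00358, 1.54e-05, 1.62e-06 and 6.16e-07). A processed copy, VDAC2P5, had 5 to 70 counts per library. Whether the AKR1B1 hairpin matches VDAC2 was not tested.

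Of 11 death receptor and adaptor genes 1 rose and 6 fell in shAKR1B1, and 4 rose and 5 fell in shSORD, and the difference between these counts was not tested. TNFSF10, the ligand TRAIL, had 0.249, 0.424 and 0.255 CPM in control, 3.80, 2.89 and 2.62 in shAKR1B1 and 1.865, 0.756 and 0.978 in shSORD libraries. On 9 to 16 counts per control library, it rose 9.86-fold and 3.83-fold (edgeR adjusted p = 7.58e-07 and 0.000508). FAS, a death receptor gene that shares exon bases with ACTA2 on the opposite strand, rose 1.52-fold in shSORD (adjusted p = 0.00043) and was at 80.1% of control in shAKR1B1 (adjusted p = 0.0347, lost without any 1 of the control or shAKR1B1 libraries, 0.0615 to 0.0899, and with upper quartile scaling, total counts or the stricter filter, 0.0548 to 0.0695), and it differed between the knockdowns (log2 −0.92, adjusted p = 2.66e-05). The adaptor FADD fell to 64.2% and 69.4% (adjusted p = 2.8e-07 and 2.42e-06), and the decoy receptor TNFRSF10D to 63.8% and 80.3% (1.13e-06 and 0.000906). Among 11 caspase and apoptosome genes 3 rose and 4 fell in shAKR1B1 and 3 rose and 2 fell in shSORD. APAF1, the scaffold that cytochrome c assembles, rose 1.26-fold and 1.40-fold (adjusted p = 0.000743 and 2.87e-05), and CASP10 rose 1.38-fold and 1.27-fold (0.00047 and 0.00437).

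Of 8 inhibitor of apoptosis genes and antagonists 3 rose and 1 fell in each knockdown. BIRC2 rose 1.31-fold and 1.39-fold (edgeR adjusted p = 0.00255 and 0.000584), BIRC7 rose 1.48-fold and 1.26-fold (0.00181 and 0.044), and BIRC5, the mitotic gene survivin, fell to 65.0% and 63.0% (1.47e-07 and 9.71e-08). The BIRC7 call in shSORD was lost with DESeq2 (0.0519) and on leaving out control replicate 1 or 3, shAKR1B1 replicate 1, or shSORD replicate 1 or 2 (0.0546 to 0.164). Among 11 transcription regulators of the family 3 rose and 7 fell in shAKR1B1 and 1 rose and 6 fell in shSORD. MDM2, a ubiquitin ligase gene, was at 89.6% and 95.2% of control (adjusted p = 0.124 and 0.499). The shAKR1B1 value passed with no expression filter (0.0487), with only the 2 groups compared (0.00821) and without shSORD replicate 2 (0.0156). FOXO1, a known activator of BCL2L11, rose 1.70-fold in shAKR1B1 (adjusted p = 2.55e-05) and differed by 0.14 on the log2 scale in shSORD (0.319; 0.0279 without shSORD replicate 2). DDIT3, the stress factor CHOP, rose 1.21-fold and 1.55-fold (adjusted p = 0.0281 and 7.73e-05); the former call was lost without control replicate 1 (0.151), shAKR1B1 replicate 1 (0.119) or shAKR1B1 replicate 2 (0.0506). DDIT3 shares exon bases with MARS on the opposite strand, and APAF1, ENDOG, FADD and MDM2 likewise each overlap an opposite-strand gene. E2F1 fell to 57.6% and 60.4% and MYC to 64.8% and 62.4% (adjusted p = 2.04e-07, 6.32e-07, 2.97e-07 and 1.6e-07). Of 5 regulators of protein stability 3 rose and 0 fell in each knockdown, and their products are known to act on MCL1 protein in opposite ways. USP9X, a deubiquitinase known to stabilise MCL1, rose 1.43-fold and 1.28-fold (edgeR adjusted p = 1.15e-05 and 0.000438). The ubiquitin ligase genes HUWE1 and FBXW7, whose products are known to promote MCL1 degradation, also rose: HUWE1 by 1.22-fold and 1.15-fold (adjusted p = 4.87e-05 and 0.00102) and FBXW7 by 1.30-fold and 1.31-fold (0.00142 and 0.00133).

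**Figure D5:**
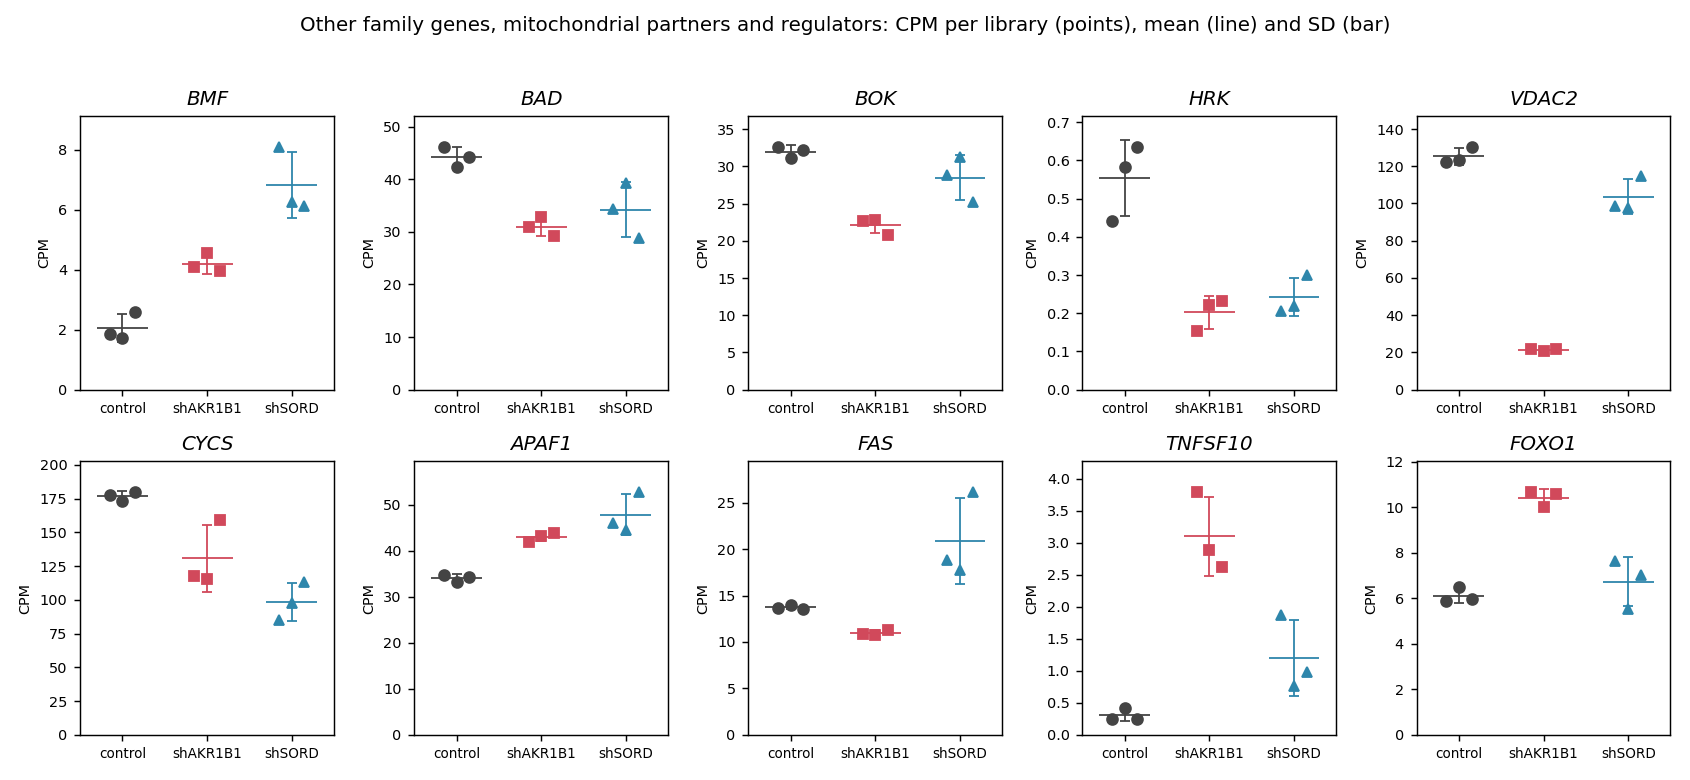
CPM in each library (points), group mean (line) and SD (bar) for other family genes, mitochondrial partners and regulators, each panel with its own axis from 0. VDAC2 lies near 21 CPM in the 3 shAKR1B1 libraries and at 97.7 CPM or more in all others, and BMF has no overlap between groups.

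The genes nearest in pattern to the 3 members with the widest range of group means were found by the root mean square difference of log2 CPM, centred on each gene, over the 9 libraries. BIK, whose group means spanned 1.17 on the log2 scale, was nearest to NLRP1 (0.143), TGM1 (0.146) and IRF1-AS1 (0.149). PMAIP1, with a span of 0.89, was nearest to DIMT1 (0.0628), MID1 (0.0685) and NEK6 (0.0747). BBC3, with a span of 0.83, was nearest to PLXNA3 (0.0419), TRIM46 (0.0950) and LLGL2 (0.0986). PLXNA3 levels were 10.3, 14.3 and 18.9 CPM on average in control, shAKR1B1 and shSORD, beside 12.2, 16.8 and 21.99 for BBC3.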

How the data were processed

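Poly(A) RNA of 9 A549 cultures was sequenced from stranded libraries. Per the submitters' processing notes, the authors used cutadapt 1.9.1, STAR 2.5.2b, Subread featureCounts 1.5.1, DESeq2 1.12.3 and GRCh37. The deposited values are raw counts per Ensembl gene. The sources used here give neither the annotation release nor the strand setting nor the treatment of reads with several matches. Identifiers were matched to symbols through a gene name table (51996 of 57905), and 103 of 104 list entries were found (PECAM1 was not).

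The members and lists were chosen with earlier results of these data known. Counts were scaled by TMM and tested with edgeR 4.0.16 (R 4.3.3) quasi-likelihood fits over all 9 libraries, with filterByExpr, 1 mean per group and Benjamini-Hochberg adjustment over 16916 genes in each comparison; called means an adjusted p under 0.05. The common biological coefficient of variation was 6.59%. CPM uses library totals (32436524 to 43044456 counts) scaled by TMM. CPM per kilobase uses GENCODE 29 exon lengths, merged over all transcripts of a gene, so its gene models are not those counted. Coordinates are therefore not printed. SEs are of log2 fold changes, and fold changes carry a prior count of 0.125. Replicates differed by more than sampling noise in every group, most in shSORD.

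Named genes were all members, the other listed family genes, MDM2 and 1 other regulator that is not reported here, AKR1B1, SORD, the 5 largest called rises and falls of the pathway lists per knockdown with at least 50 mean counts and no overlap of libraries, and 3 nearest patterns for 3 members. VDAC1, VDAC3, HUWE1 and FBXW7 were added after values were seen. Same-numbered libraries of shAKR1B1 and shSORD deviated together (correlations 0.102, 0.193 and 0.144), so the numbers may pair these 2 groups. Correlations with control lay between −0.0285 and 0.0314. The main fit had no block, so its p-values between the knockdowns ignore such a pairing. A block on these 2 groups was run as an alternative. Alternatives were other scalings, filters, thresholds, DESeq2 1.42.0, fewer groups, a replicate block and leaving out each library.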

Additional observations from a re-analysis of the deposited data

How the results depend on the processing

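The number of members rising in shAKR1B1 against control was 2, and 1 at an adjusted p under 0.01, with 1 to 3 when single libraries were left out (1 without control replicate 2). Members higher in shAKR1B1 than in shSORD numbered 2, but 1 with total counts only, with no expression filter, with DESeq2 and with a replicate block on the 2 groups compared (added after seeing the data), 0 with only the 2 groups compared and 0 at an adjusted p under 0.01, and 0 to 2 with single libraries left out. Members lower there numbered 5, then 3 at an adjusted p under 0.01 and 3 to 5 with single libraries left out (3 without shAKR1B1 replicate 1). The other counts stayed within 1.5 times. With the replicate block on all 9 libraries MCL1 in shAKR1B1 passed (0.14, adjusted p = 0.0354), and the block on 2 groups ended the PMAIP1 call (0.26, adjusted p = 0.0517); no other member's call changed under either block. Log2 differences that changed sign were of genes not called in that comparison. BCL2L11 in shAKR1B1 became 0.027 with upper quartile scaling and 0.011 with total counts, and lay between −0.091 and 0.017 with single libraries left out. BCL2L1 in shSORD became 0.058, 0.051, 0.026 and 0.0051 with upper quartile scaling, total counts, the stricter filter and only the 2 groups, and lay between −0.049 and 0.071 with single libraries left out. BAX in shSORD lay between −0.060 and 0.113 with single libraries left out, MCL1 between the knockdowns between −0.094 and 0.025, and BAK1 between the knockdowns between −0.048 and 0.060. BAK1 there became −0.0083, −0.017, −0.0034, −0.0028 and −0.0032 with upper quartile scaling, total counts, the stricter filter, only the 2 groups and the block on 2 groups. MDM2 in shSORD became 0.0007 with upper quartile scaling and lay between −0.151 and 0.039 with single libraries left out. The causes were not tested. Of 550 alternative values of single members 486 kept direction and call, 31 lost the call and 14 gained it. BIK, BCL2, HRK and TNFSF10 rest on few counts, which limits their precision.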
